A study of Mus musculus with 6 samples.

Results

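The nuclear genes that encode the subunits of respiratory complexes II to V, and cytochrome c between them, were followed in mouse muscle from 3 animals labelled knockout (KO) for SIRT6 and 3 labelled wild type (WT). Probe sets, which are groups of short probes against the same transcript, were taken as members when their single gene symbol began with Uqcr, Atp5 or Cox followed by a digit from 4 to 8, or was an Sdh gene from a to d, Cyc1 or Cycs, with Cox8b left out. This gave 95 probe sets of 45037 and 47 genes of 18193: 4 genes of complex II, 9 of complex III, 1 for cytochrome c, 16 of complex IV and 17 of complex V. Where a gene had several probe sets, the one with the highest mean intensity stood for it. All 6 animals were on the 129SvJ background, each gave total RNA from muscle to 1 Affymetrix expression array, and the KO animals carry the genotype SIRT6KO. The sources used here name neither the muscle, the age, the sex nor the deleted part of the gene.

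The respiratory chain lies in the inner mitochondrial membrane. Complex II takes electrons from succinate, complex III passes electrons from ubiquinol to the small mobile carrier cytochrome c, complex IV uses them to reduce oxygen, and complex V, the ATP synthase, makes ATP from the proton gradient that complexes III and IV help to build. Complexes III, IV and V also contain subunits made from mitochondrial DNA, while complex II and every gene described here are nuclear. Skeletal muscle is rich in these complexes, and for some complex IV subunits heart and skeletal muscle use an isoform of their own beside the ubiquitous one. SIRT6 is a NAD-dependent deacylase of chromatin.

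Sirt6 itself, at probe set 1429631_at, read 22.6, 18.3 and 13.7 in KO replicates 1, 2 and 3, against 23.2, 15.1 and 21.3 in WT replicates 1, 2 and 3, so the groups overlapped (limma adjusted p = 0.947) and this probe set does not check the labels. Xist read 715.4, 1165.7 and 1138.9 in KO arrays and 31.3, 24.5 and 29.6 in WT arrays, while the Y-linked gene Eif2s3y read 1.1, 4.1 and 2.7 in KO arrays and 77.1, 53.9 and 44.5 in WT arrays. These transcripts part the animals exactly as the labels do, so genotype and sex cannot be told apart in any comparison below. Median intensities were 11 to 13.5 in KO arrays and 10.8 to 15 in WT arrays. The hybridization controls of WT replicate 1 were 1.93 times those of WT replicate 2, against 0.968 to 1.003 times on the other 4 arrays. Among the bright probe sets, those with a mean of 1000 or more, WT replicate 1 lay 0.33 above the WT mean on the log2 scale and WT replicate 3 lay 0.28 below it (-0.28). Most subunit genes belong to this bright range: 37 of the 47 had a mean of 1000 or more, and 40 of the 47 had their highest value of all arrays in WT replicate 1.

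No subunit gene passed the test between KO and WT muscle, and most lay slightly lower in KO. In the limma fit over all probe sets 0 of the 95 member probe sets had an adjusted p under 0.05, where 0.00888% of all probe sets did, and the lowest adjusted p among them was 0.529. The fit refitted to probe sets above the median level, which 82 of the 95 passed, called 0 of them, where it called 0.351% of those tested. At an unadjusted p under 0.05 there was 1 gene lower in KO and 0 higher, where 6.29% of all genes were lower and 3.54% higher at that limit. Over probe sets the same limit gave 2 lower in KO, at Cox6a1 and Uqcr10, where 4.99% of all probe sets were, and 1 higher, at Cox6a2, where 3.57% were. Of the 47 genes 33 had a negative log2 change (70.2%, against 53.2% of all genes and 49.0% of all bright probe sets) and 14 a positive one. The median log2 change, KO minus WT on the log2(intensity + 16) scale, was -0.13 over the 47 genes, beside -0.02 over all 18193 genes and 0.02 over the 459 bright probe sets of the whole array. The 95% interval reached a median of 0.51 to either side of a gene's log2 change, and for 42 of the 47 genes it lay wholly between -1 and 1.

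On the values as deposited, with no scaling added, the small shift depended on single arrays. The median over the 47 genes lay at -0.09, 0.11 and -0.38 from the WT mean in KO replicates 1, 2 and 3, against 0.31, 0.01 and -0.34 in WT replicates 1, 2 and 3. KO replicate 3 was the lowest array for 25 genes and WT replicate 3 for 18, and 26 genes read lower in KO replicate 3 than in any WT array, against 4 in KO replicate 1 and 1 in KO replicate 2. Without KO replicate 3 the median change was 0.01 and without WT replicate 1 it was 0.02, so the sign turned on these values as deposited. The median change was -0.15 without KO replicate 1, -0.24 without KO replicate 2, -0.08 without WT replicate 2 and -0.29 without WT replicate 3. After quantile normalization, which gives every array the same distribution of values, the median change was -0.20 with all arrays and -0.19 without WT replicate 1, and leaving out KO replicate 3 was not tested with that scaling. In that setting without WT replicate 1 the medians were -0.29 for complex II, -0.21 for complex III, -0.54 for Cycs, -0.0028 for complex IV and -0.25 for complex V. In RNA from whole muscle, fewer cells of a type and less RNA per cell cannot be told apart.

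**Figure D1:**
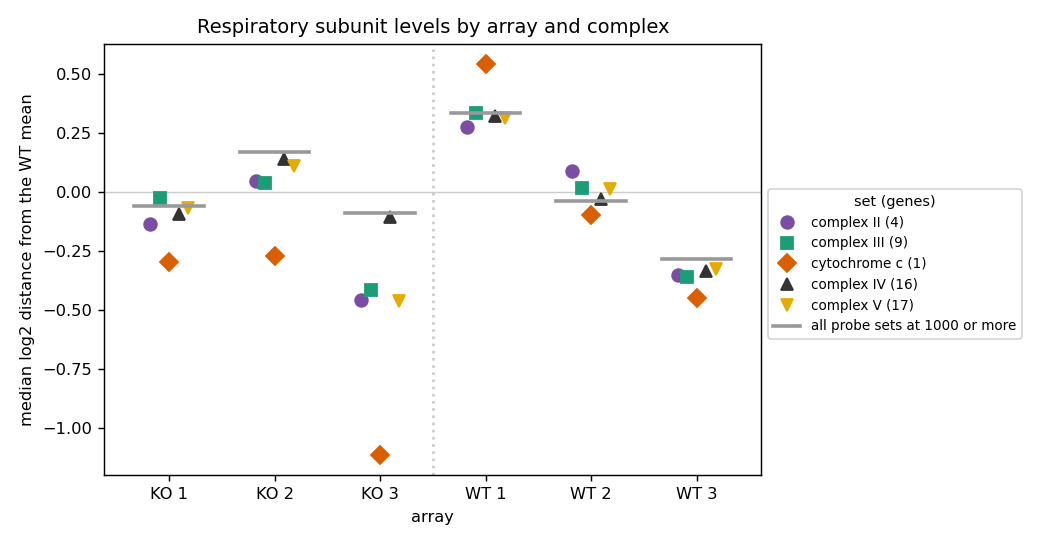
Median log2 distance from the WT mean (y axis) on each array (x axis), for the genes of each complex and for cytochrome c (symbols, with the number of genes), beside all probe sets at 1000 or more (grey bars). Cytochrome c lies at -1.12 in KO 3, and complex IV at -0.10 there, while complexes II, III and V lie between -0.46 and -0.41.

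In KO replicate 3 the complexes lay at different distances below WT. There the median distance from the WT mean was -0.46 for complex II, -0.41 for complex III, -1.12 for Cycs and -0.46 for complex V, but -0.10 for complex IV, close to the -0.09 of all bright probe sets. In KO replicate 1 these medians lay between -0.29 and -0.02, and in KO replicate 2 between -0.27 and 0.14, with Cycs lowest on both arrays. Over all arrays the median log2 change was -0.18 for complex II, -0.13 for complex III, 0.01 for complex IV and -0.15 for complex V. These medians are descriptions, and the difference between complexes was not tested. Complex IV also holds the 4 genes with a mean under 50, Cox4i2, Cox6b2, Cox7b2 and Cox7c, whose changes the offset understates. Its median intensity was 1151, beside 1336 for complex II, 1791 for complex III and 2377 for complex V. Its median is therefore not fully comparable with theirs or with that of the bright probe sets.

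**Figure D2:**
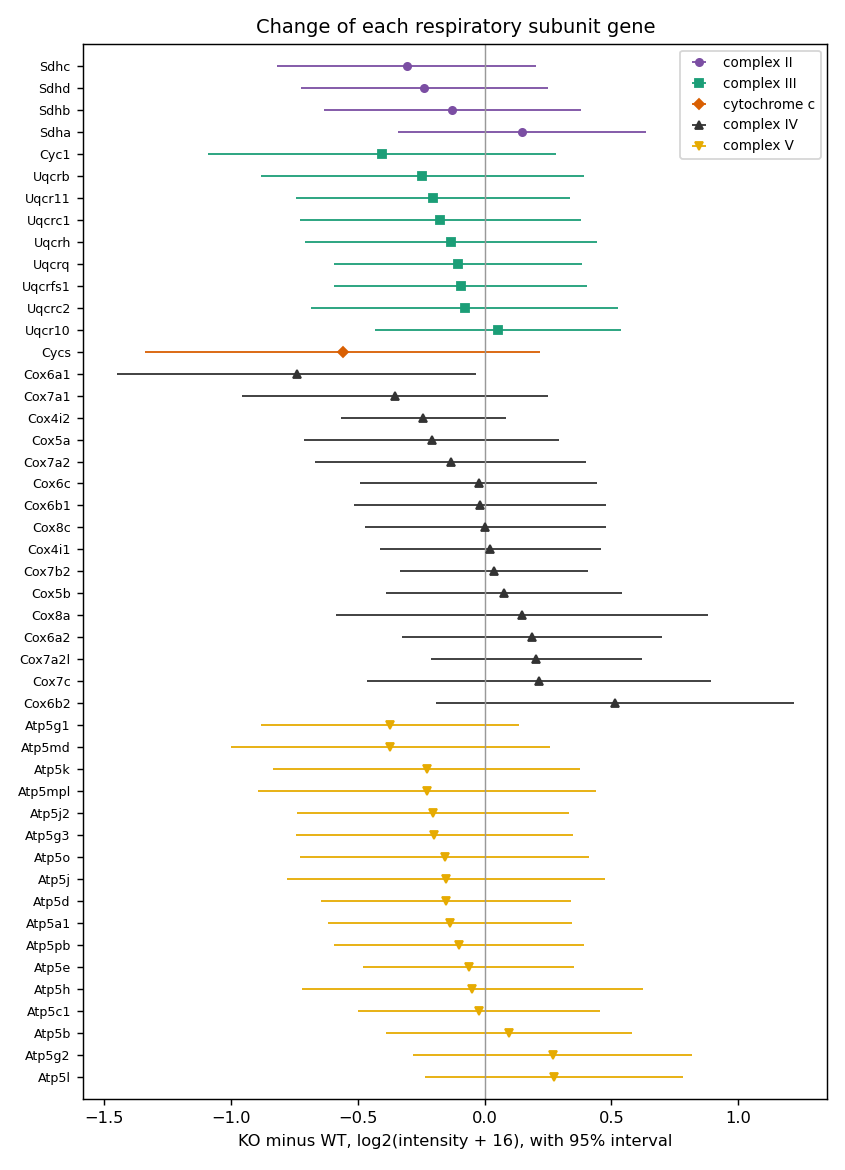
Log2 change, KO minus WT, of each of the 47 genes (points) with its 95% interval from limma (bars), grouped by complex. Cox6a1, at -0.74, is the gene whose interval does not reach 0, and the largest positive value is that of the dim Cox6b2, at 0.51.

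Complex II has 4 subunits, and 3 of them read lower on average in KO. Sdha, the flavoprotein that oxidises succinate, read 1403.7, 1728.4 and 1231.9 in KO arrays, against 1524, 1418 and 1011.7 in WT arrays. The groups overlapped, and its log2 change was 0.15 with an interval of -0.34 to 0.64 (limma adjusted p = 0.891). Sdhb, the iron-sulfur subunit, averaged 2167 ± 404 in KO and 2375 ± 495 in WT (SD, n = 3 each), a log2 change of -0.13 (limma adjusted p = 0.919). The membrane anchor Sdhc read 1154.4, 1316 and 952.5 in KO arrays and 1730.9, 1486.8 and 1074 in WT arrays. Only KO replicate 3 lay below every WT array, and the log2 change of Sdhc was -0.31 (limma adjusted p = 0.738). The other anchor, Sdhd, averaged 816 ± 135 in KO and 970.1 ± 205 in WT, a log2 change of -0.24 (limma adjusted p = 0.801).

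In complex III 8 of 9 genes read lower on average in KO, and in none were the groups apart. Cyc1, the haem-bearing cytochrome c1 that hands electrons to cytochrome c, had the largest difference. It read 2453.9, 2747.4 and 1439.9 in KO arrays, against 3576, 2867.1 and 2209.1 in WT arrays. KO replicate 3 alone lay below the lowest WT array, and the log2 change was -0.40 with an interval of -1.09 to 0.28 (limma adjusted p = 0.744). Uqcrb, known as the ubiquinone-binding subunit, read 4106.5, 4453.3 and 3721 in KO arrays and 7403.3, 4183.5 and 3660.4 in WT arrays. Its WT mean was carried by replicate 1, and its log2 change was -0.24 over all arrays and 0.06 without that array. Uqcr11 averaged 1208 ± 271 in KO and 1385 ± 264 in WT, the core subunit Uqcrc1 2418 ± 476 in KO and 2753 ± 689 in WT, and the hinge protein Uqcrh 1690 ± 276 in KO and 1892 ± 579 in WT. The remaining 4 genes, Uqcrc2, the Rieske iron-sulfur protein Uqcrfs1, Uqcrq and Uqcr10, had log2 changes between -0.10 and 0.05. For Uqcr10 the probe sets disagreed: the brightest gave 0.05, and the others gave -0.20 and -0.49, the most negative one being the dimmest, with 136 ± 15 in KO and 200.4 ± 48.5 in WT (SD, n = 3 each).

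Cytochrome c, the mobile carrier between complexes III and IV that also triggers the caspase cascade when it leaves mitochondria, lay lower in KO at all 4 of its probe sets, of which 3 were bright. At its brightest, 1456071_a_at, Cycs read 3288.6, 3345.9 and 1855.1 in KO arrays, against 5896.5, 3777.7 and 2951.7 in WT arrays. At 1422483_a_at it read 2204.8, 1969.4 and 1075.1 in KO arrays and 3283.5, 2521.8 and 2133.6 in WT arrays. At 1422484_at it read 1057, 771 and 421.7 in KO arrays and 1826.3, 1188.8 and 937.5 in WT arrays. KO replicate 3 was the lowest array at all of these, and in each the highest KO array stood above WT replicate 3, so that the groups overlapped. The log2 changes were -0.56, -0.63 and -0.84 in the same order, with limma adjusted p-values of 0.68, 0.612 and 0.60. The change at 1456071_a_at was -0.28 without KO replicate 3, -0.29 without WT replicate 1 and -0.78 without WT replicate 3. Cycs was lowest in the KO array in which the muscle atrophy list, 14 genes such as the ubiquitin ligase Fbxo32, was highest: the list's median distance from the WT mean was 0.31, 1.62 and 2.79 in KO replicates 1, 2 and 3, and 0.27, 0.06 and -0.31 in WT replicates 1, 2 and 3. KO replicate 3 was the lowest array for 25 of the 47 member genes, so this is not particular to Cycs. Between KO replicates 1 and 2 the list rose, and the Cycs probe sets differed in direction. Cycs read 3288.6 and 3345.9 at 1456071_a_at, but 2204.8 and 1969.4 at 1422483_a_at and 1057 and 771 at 1422484_at. The part of that list in the Cycs values was not tested.

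Promoter sequence is shown for Cycs and for Cox6a1, the members with the most negative log2 changes, and for the muscle isoform gene Cox7a1 for comparison. Each line gives the 250 bases before the RefSeq transcription start (build GRCm38.p6, 5′ to 3′ on the gene's own strand), and capitals mark matches to the motifs searched. The windows are chr6:50566570-50566819 on the minus strand for Cycs, chr5:115348959-115349208 on the minus strand for Cox6a1 and chr7:30183921-30184170 on the plus strand for Cox7a1.
Cycs: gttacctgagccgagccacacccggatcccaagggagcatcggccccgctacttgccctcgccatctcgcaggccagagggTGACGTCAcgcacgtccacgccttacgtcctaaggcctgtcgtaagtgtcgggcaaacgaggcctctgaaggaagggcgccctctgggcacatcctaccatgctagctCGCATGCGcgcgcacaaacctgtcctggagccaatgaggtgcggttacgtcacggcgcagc
Cox6a1: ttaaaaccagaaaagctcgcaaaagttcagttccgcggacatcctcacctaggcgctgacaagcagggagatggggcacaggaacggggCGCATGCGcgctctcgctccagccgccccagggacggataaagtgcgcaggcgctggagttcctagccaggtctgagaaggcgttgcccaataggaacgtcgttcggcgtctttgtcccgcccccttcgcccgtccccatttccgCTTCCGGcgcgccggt
Cox7a1: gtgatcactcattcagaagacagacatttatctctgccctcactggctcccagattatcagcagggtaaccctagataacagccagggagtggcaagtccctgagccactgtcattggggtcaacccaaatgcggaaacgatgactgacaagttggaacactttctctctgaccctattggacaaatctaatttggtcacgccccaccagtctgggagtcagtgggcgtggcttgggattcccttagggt

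Searched on both strands were CGCATGCG, the palindromic core bound by nuclear respiratory factor 1 (NRF-1), CCGGAAG, an ETS site of the kind bound by GABP, and TGACGTCA, the cyclic AMP response element. These are motifs of factors known to act on respiratory genes. Cycs holds an NRF-1 core that starts 61 bases before the transcription start and a cyclic AMP response element that starts 169 bases before it. Cox6a1 holds an NRF-1 core at 161 bases and an ETS site, read on the other strand, at 16 bases, and the Cox7a1 window holds none of these letters. RefSeq windows were at hand for 35 of the 47 genes, with 38 windows in all. The NRF-1 core was in 6 of the 38 (15.8%), against 1.55% of all 32851 windows, and the ETS site was in 9 (23.7%), against 6.91%. The cyclic AMP response element was in 2 of the 38, those of Cycs and Uqcrfs1, and in 1.55% of all windows. No match overlapped another. The 6 genes with the NRF-1 core had log2 changes of both signs: -0.74 for Cox6a1, -0.56 for Cycs, -0.23 for Atp5k and -0.15 for Atp5j, but 0.27 for Atp5g2 and 0.27 for Atp5l. A match is a description of letters and not a bound site.

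**Figure D3:**
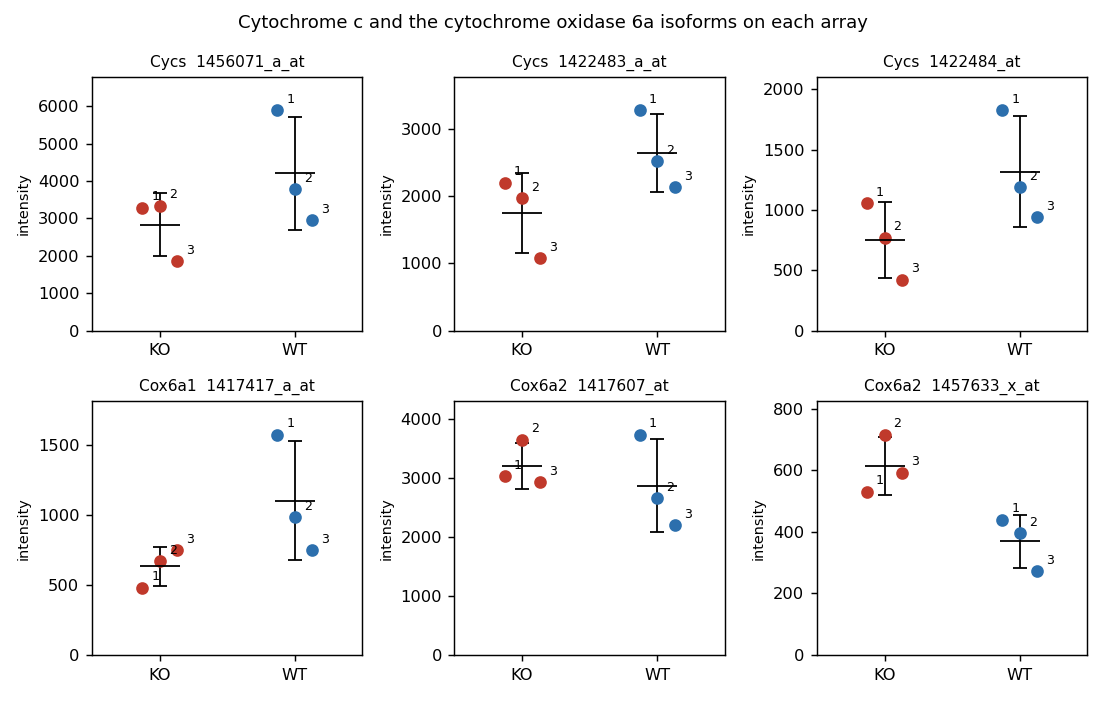
Deposited intensities (y axis, linear scale from 0) of 3 Cycs probe sets, 1 of Cox6a1 and 2 of Cox6a2 in KO and WT arrays. Points are arrays with their replicate number, bars are the mean and SD (n = 3); KO lies below WT throughout at Cox6a1 and above WT throughout at Cox6a2 probe set 1457633_x_at.

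In complex IV, cytochrome c oxidase, 7 genes read lower and 9 higher on average in KO, and the isoforms of subunit 6a had mean changes of opposite sign. Cox6a1, the ubiquitous 6a isoform, read 480.3, 672.9 and 747.6 in KO arrays, against 1574.8, 983.4 and 750.7 in WT arrays. All KO arrays lay below all WT arrays, but KO replicate 3 and WT replicate 3 were almost equal. It was 1 of the 47 genes (2.13%) with KO below WT throughout, where 8.34% of all genes were, and 1 of the 95 probe sets, where 7.29% of all probe sets were. After quantile normalization this was 10 of the 47 genes (21.3%) against 10.3% of all genes, and without WT replicate 3 it was 14 (29.8%) against 19.1%, so the order against all genes depended on the setting. No subunit gene had KO above WT throughout, where 4.51% of all genes did. Its log2 change was -0.74 with an interval of -1.45 to -0.03 (limma adjusted p = 0.577), or -0.45 without WT replicate 1. Its second probe set, 1417418_s_at, gave -0.62 with overlapping groups.

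Cox6a2, the 6a isoform of heart and skeletal muscle, read 3025.3, 3648.9 and 2929.9 in KO arrays, against 3735.8, 2657.5 and 2200.4 in WT arrays, at its brightest probe set. These groups overlapped because of WT replicate 1, and the log2 change was 0.19 with an interval of -0.33 to 0.70 (limma adjusted p = 0.863). At 1457633_x_at Cox6a2 read 530.8, 715.9 and 591.9 in KO arrays and 439.3, 396.1 and 271.9 in WT arrays. All KO arrays were above all WT arrays there, with a log2 change of 0.72 (limma adjusted p = 0.529). This was 1 of 2 member probe sets with KO above WT, where 5.02% of all probe sets showed that pattern, and the other was a dim one of Atp5c1.

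Because a scaling common to a whole array cancels in it, the difference between isoforms within an array was compared for 6 pairs. Each difference mixes the response of different probes, so only its change between groups can be read, not its size. For Cox6a2 minus Cox6a1 the log2 difference was 2.62, 2.41 and 1.95 in KO arrays and 1.24, 1.42 and 1.53 in WT arrays. The groups did not overlap, and the mean was higher in KO by 0.93 (exact two-sided permutation p = 0.10, adjusted p = 0.24 over the 6 pairs). With 3 arrays against 3, 0.10 is the smallest p this test can give. The shift was between 0.78 and 1.12 with each array left out in turn and 0.94 after quantile normalization.

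**Figure D4:**
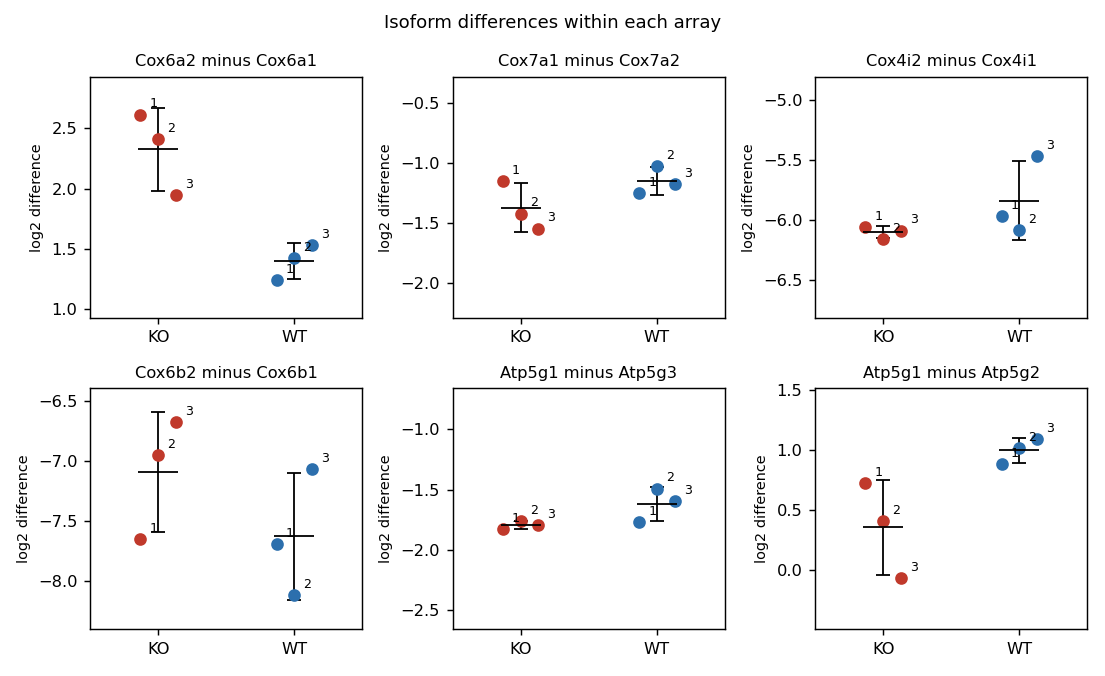
Log2 difference between the isoforms of a subunit within each array (y axis, all panels 2 log2 units high), in KO and WT arrays for 6 pairs. Points are arrays with their replicate number and bars the mean and SD (n = 3); the groups part for Cox6a2 minus Cox6a1 and for Atp5g1 minus Atp5g2 and overlap in the other 4 panels.

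For the other isoform pairs of complex IV the KO and WT arrays overlapped. Cox7a1, the 7a isoform of heart and skeletal muscle, read 1469.9, 1415.4 and 898.3 in KO arrays and 1886.4, 1730 and 1202.2 in WT arrays, a log2 change of -0.35 (limma adjusted p = 0.747). Cox7a2, its ubiquitous counterpart, averaged 3244 ± 581 in KO and 3595 ± 887 in WT, a log2 change of -0.13 (limma adjusted p = 0.918). The Cox7a1 minus Cox7a2 difference was lower in KO by a log2 value of -0.22, with overlapping groups (exact two-sided permutation p = 0.30). Cox4i1, the ubiquitous subunit 4, averaged 3013 ± 369 in KO and 2990 ± 573 in WT, a log2 change of 0.02 with an interval of -0.41 to 0.46. Cox4i2, its counterpart known from lung, was dim, at 25.8, 32.4 and 25.7 in KO arrays and 40, 30.2 and 37.8 in WT arrays. Cox6b1 averaged 4872 ± 555 in KO and 5019 ± 1279 in WT, while Cox6b2, known from testis, read 9.1, 27.2 and 25.8 in KO arrays and 14.9, 1.6 and 12.6 in WT arrays. For both of these pairs the isoform difference had an exact two-sided permutation p of 0.20, but it depended on the offset. For Cox4i2 minus Cox4i1 the shift was -0.26, or -0.37 with an offset of 1 and -0.14 with an offset of 64. The exact two-sided permutation p was 0.10 and 0.70 with those offsets. For Cox6b2 minus Cox6b1 the shift was 0.53, or 1.27 with an offset of 1 and 0.22 with an offset of 64.

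Cox5a, a subunit on the matrix side, averaged 4305 ± 416 in KO and 5082 ± 1385 in WT, a log2 change of -0.21, and its 3 probe sets gave -0.22 to -0.21. Cox7a2l, a Cox7a relative that joins complexes III and IV into supercomplexes, averaged 357 ± 28.9 in KO and 311 ± 61.7 in WT, with log2 changes of 0.18 to 0.24 at its 3 probe sets. The remaining 6 genes, Cox5b, Cox6c, Cox8a, Cox7c and the testis forms Cox7b2 and Cox8c, had log2 changes between -0.02 and 0.21 with overlapping groups. Cox7c and Cox7b2 had 0 probe sets above the median level. For Cox7c, a ubiquitous subunit, the brighter probe set read 11.8, 16 and 2.3 in KO arrays and 0.5, 13.6 and 5.4 in WT arrays, so its values carry no usable comparison.

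In complex V 14 of 17 genes read lower on average in KO, all with overlapping groups. Of the subunits of the catalytic F1 head, Atp5a1, the alpha subunit, averaged 4533 ± 841 in KO and 4981 ± 937 in WT, and Atp5b, the beta subunit, 4817 ± 627 in KO and 4568 ± 1120.1 in WT. Their log2 changes were -0.14 with an interval of -0.62 to 0.35 and 0.10 with an interval of -0.39 to 0.58. The most negative value was that of Atp5g1, 1 of 3 genes for subunit c, the protein that forms the rotor ring in the membrane. Atp5g1 read 1417.8, 1727.8 and 1087.3 in KO arrays, against 2070.2, 1906.7 and 1478.1 in WT arrays, a log2 change of -0.37 with an interval of -0.88 to 0.13 (limma adjusted p = 0.673). KO replicates 1 and 3 lay below every WT array and KO replicate 2 did not.

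The subunit c genes had mean changes of both signs. Atp5g2 read 853.4, 1298.6 and 1140.2 in KO arrays, against 1116.7, 934.3 and 687 in WT arrays, a log2 change of 0.27 (limma adjusted p = 0.802). Atp5g3 averaged 4929 ± 1053 in KO and 5664 ± 1314 in WT, a log2 change of -0.20 (limma adjusted p = 0.865). The Atp5g1 minus Atp5g2 difference was 0.72, 0.41 and -0.07 in KO arrays and 0.88, 1.02 and 1.09 in WT arrays. All KO arrays were below all WT arrays, and the mean was lower in KO by a log2 value of -0.64 (exact two-sided permutation p = 0.10, adjusted p = 0.24 over the 6 pairs). It stayed between -0.83 and -0.43 with each array left out in turn. The Atp5g1 minus Atp5g3 difference overlapped, with a log2 value of -0.18 (exact two-sided permutation p = 0.20), but was -0.34 after quantile normalization, where the groups no longer overlapped (exact two-sided permutation p = 0.10).

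Among the small subunits in the membrane part of complex V, Atp5l and its neighbours had changes of opposite sign. Atp5l, subunit g, read 1527.5, 2156.7 and 1680.1 in KO arrays, against 1828.2, 1474.9 and 1154.8 in WT arrays, a log2 change of 0.27 (limma adjusted p = 0.771). Atp5k, subunit e, averaged 3093 ± 829 in KO and 3583 ± 724 in WT, and Atp5j2, subunit f, 3137 ± 653 in KO and 3623 ± 817 in WT. Atp5md, a small protein bound to the synthase, read 627.1, 789.3 and 496.8 in KO arrays and 1078.5, 857.5 and 585.7 in WT arrays, a log2 change of -0.37 (limma adjusted p = 0.744). The other 10 genes, Atp5a1 and Atp5b among them, had log2 changes between -0.23 and 0.10. Of the 27 genes of all complexes with more than 1 probe set above the median level, 22 had the same direction at each of them.

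Assembly factors, which insert cofactors and help the subunits of these complexes come together without being part of them, lay further below WT than the subunits. Of 41 listed symbols 34 were measured, 28 of them lower (82.4%, against 53.2% of all genes) and 6 higher on average in KO. Their median log2 change was -0.33, beside -0.13 for the subunits and -0.02 for all genes. In 14 of the 34 (41.2%) all KO arrays lay below all WT arrays, where 8.34% of all genes did, and 14 had an unadjusted p under 0.05, where 6.29% did. The genes with KO below WT include Sco1, which read under 16 on every array. They also include Sdhaf2, whose 2 probe sets above the median level gave -0.19 and 0.06. Such probe sets also differed in direction for Ttc19 and Cox15. In the limma fit over all probe sets 0 passed, the lowest adjusted p being 0.422. In the fit to probe sets above the median level 1 passed, Bcs1l, where 0.351% of those tested did. Bcs1l owed its place above the median level mainly to its WT arrays. The list's median distance from the WT mean was -0.17, -0.28 and -0.57 in KO arrays and 0.25, 0.04 and -0.28 in WT arrays. By this measure the groups overlapped, since KO replicate 1 lay above WT replicate 3 and KO replicate 2 almost equalled it. These genes are much dimmer than the subunits, with a median intensity of 103, and this difference in brightness was not separated from the difference between the lists. The count of 14 was 14 after quantile normalization and between 14 and 26 with each array left out in turn, 26 being without WT replicate 3. Of all genes 10.3% had KO below WT after quantile normalization and 19.1% without WT replicate 3.

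The assembly factors with the lowest p-values serve different complexes. Bcs1l, which places the Rieske protein into complex III, read 24.5, 4.9 and 10 in KO arrays, against 66.1, 55.2 and 54.8 in WT arrays, a log2 change of -1.41 (limma adjusted p = 0.422 over all probe sets and 0.0322 in the fit to those above the median level). Uqcc1, a complex III assembly factor, read 96.9, 83.1 and 52.3 in KO arrays and 186.6, 169 and 133.4 in WT arrays, a log2 change of -0.96 (limma adjusted p = 0.511). Atpaf2, a chaperone of the alpha subunit of complex V, read 26.8, 2.2 and 9.8 in KO arrays and 69.9, 43.9 and 40.4 in WT arrays (limma adjusted p = 0.524). Coa7, a complex IV assembly factor, read 35.4, 39.9 and 28.4 in KO arrays and 89.2, 72.2 and 50.5 in WT arrays (limma adjusted p = 0.524). In each of these the KO and WT arrays stood apart. KO replicates 2 and 3 lay under the offset of 16 for both Bcs1l and Atpaf2. Hccs, the enzyme that attaches haem to cytochrome c and cytochrome c1, averaged 66.2 ± 9.71 in KO and 129 ± 37.5 in WT, a log2 change of -0.79, and was named after its values were seen because Cycs and Cyc1 are its substrates.

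**Figure D5:**
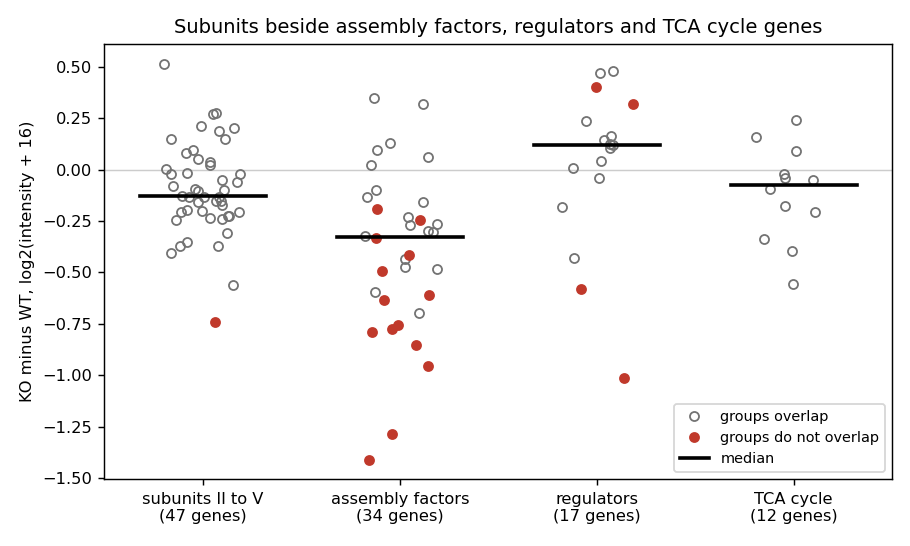
Log2 change, KO minus WT, of each gene (points, y axis) for the 47 subunits, 34 assembly factors, 17 regulators and 12 TCA cycle genes, with the median of each (black bars). Filled points are genes whose KO and WT arrays do not overlap, 1 among the subunits and 14 among the assembly factors.

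Of 17 measured regulators of respiratory genes 12 had a positive log2 change and 5 a negative one, with 0 past the threshold and a median of 0.12. Their median distance from the WT mean was -0.12, 0.10 and 0.32 in KO arrays and 0.24, 0.11 and -0.34 in WT arrays, so the groups overlapped and KO replicate 3 alone lay above every WT array. The groups did not overlap in 4 of them, 2 lower in KO and 2 higher, where 8.34% of all genes lay lower in that way and 4.51% higher. Ppargc1a, the coactivator that drives mitochondrial biogenesis, read 66.8, 74.7 and 98.1 in KO arrays and 79.8, 80.4 and 50.2 in WT arrays, a log2 change of 0.16 (limma adjusted p = 0.875). Its relative Ppargc1b read 111.9, 107.6 and 23.7 in KO arrays, against 177.7, 180.1 and 120.3 in WT arrays, a log2 change of -1.01 with the groups apart (limma adjusted p = 0.602). Tfam, which packages and transcribes mitochondrial DNA, read 118, 119.1 and 133.1 in KO arrays and 108.7, 97 and 67.2 in WT arrays, a log2 change of 0.40 (limma adjusted p = 0.595). Polrmt, the mitochondrial RNA polymerase, had a log2 change of 0.32 and Tfb1m, a methyltransferase of mitochondrial ribosomal RNA, one of -0.58. Esrra, Nrf1 and Gabpa, the nuclear factors that bind respiratory promoters, had log2 changes of -0.43, 0.12 and 0.01 with overlapping groups.

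Nuclear genes of complex I and the mitochondrial ribosome also had negative medians. The 35 Nduf genes of complex I had a median log2 change of -0.21, with 26 negative (74.3%, against 53.2% of all genes) and 2 with KO below WT throughout (5.71%, against 8.34% of all genes), and their median distance in KO replicate 3 was -0.49. The 76 mitochondrial ribosomal protein genes had a median of -0.25, with 61 negative (80.3%, against 53.2% of all genes) and 14 with KO below WT throughout (18.4%, against 8.34% of all genes). The 12 TCA cycle genes had a median of -0.07 and 0 with the groups apart, and 19 genes of the mitochondrial envelope had a median of -0.13. In these lists 0 genes passed over all probe sets or in the fit to those above the median level. Within the TCA cycle Dlst, a subunit of the oxoglutarate dehydrogenase complex, had the lowest p, at a log2 change of -0.56 (limma adjusted p = 0.591), and in the envelope list it was Hspd1, the mitochondrial chaperonin, at -0.49 (limma adjusted p = 0.563).

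Markers of fibre type and of other cells were read on the same arrays. Among them only the brown adipocyte genes Cidea and Ucp1 passed, in the fit to probe sets above the median level. That fit called 0.351% of the probe sets tested. Skeletal muscle markers were high on every array, with summed intensities of 41595.5 to 42943.3 in KO and 38603.5 to 62160.5 in WT, and of 8 cardiac markers Nppa, Nppb and Tnni3 were below 16 on all arrays. Slow fibre genes, whose fibres are rich in mitochondria, had a positive log2 change in 10 of 12 members, with 3 of the 12 (25%) KO above WT throughout, against 4.51% of all genes, and 0 past the threshold in either fit. Their summed intensity was 3708 to 10752 in KO and 2994 to 6005 in WT. KO replicate 2 alone lay above the WT range, while KO replicates 1 and 3, at 5594.7 and 3707.9, lay within it. Fast fibre genes, with a negative log2 change in 10 of 12, summed to 94003.5 to 100682 in KO and 95111.2 to 154178 in WT. Only WT replicate 1 lay above the KO range, while WT replicates 2 and 3, at 97905.5 and 95111.2, lay within it. Of 5 measured brown adipocyte markers, whose cells are also rich in these complexes, Ucp1 and Cidea had KO below WT throughout (40%, against 8.34% of all genes). Ppara, Dio2 and Elovl3 overlapped, with log2 changes of -0.18, -0.03 and -0.01. The 5 had sums of 266 to 376.5 in KO and 1108 to 1839 in WT. Ucp1, the uncoupling protein that defines brown fat, read 129.9, 5.9 and 2.3 in KO arrays, against 877.2, 570.3 and 586.1 in WT arrays (limma adjusted p = 0.436 over all probe sets and 0.00237 in the fit to those above the median level). White adipocyte markers summed to 2379 to 4217 in KO and 3139 to 6146 in WT, and the fibroblast list to 3609.6 to 7622.9 in KO and 7376.5 to 12865.7 in WT. Each of these lists had 2 of 6 genes with KO below WT throughout (33.3%, against 8.34% of all genes) and 0 past the threshold. Macrophage markers summed to 220.1 to 384.6 in KO and 237.2 to 422.6 in WT, with 3 of 6 lower and 3 higher on average in KO. Among them Cd163 had KO above WT throughout (16.7%, against 4.51% of all genes), while Mrc1 had a log2 change of -0.81 with overlapping groups. Endothelial markers summed to 304.8 to 568.4 in KO and 340.8 to 413.2 in WT. Erythroid markers, of which only 2 of 5 listed were measured, summed to 29.7 to 55 in KO and 42.8 to 71.4 in WT. Mb stands in both the slow fibre and the skeletal muscle list, and Ppara in both the brown adipocyte list and the regulators. No marker of any of these lists was at 0 on any array, and the part of these cells and fibres in the subunit values was not tested.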

How the data were processed

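Muscle RNA of 6 mice was measured on 1 Affymetrix array each. The authors deposited 1 linear intensity per probe set and array, and no source used here states the software, scaling or background correction behind it. TriPure was used for extraction and biotin as the label, per the labels' protocols. Of 45101 probe sets 64 manufacturer controls were left out, and 0 sample columns were unused. Intensities were taken as log2(value + 16) without further normalization, so changes of dim probe sets are understated. KO minus WT was fitted with limma 3.58.1 (lmFit and eBayes, two-sided) in R 4.3.3 over all 45037 probe sets, with Benjamini-Hochberg adjustment at 0.05, after a check on simulated data. An adjusted p is limma's unless a permutation test is named.

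Symbols came from the platform annotation, which gave 1 symbol for 34945 probe sets, several for 932 and none for 9160, and all 47 member genes matched RefSeq. Promoters are RefSeq's (GRCm38.p6). Probe set coordinates were not used. The members and gene lists were chosen with earlier results of these data known. Values on every array or group means are given for the genes of lowest p in each complex, all complex II genes, cytochromes c and c1 and the isoform pairs. They are also given for the assembly factors of lowest p, Hccs, Ppargc1b and Ucp1. Of 5 fixed regulators Ppargc1a and Tfam have such values, and Esrra, Nrf1 and Gabpa a log2 change alone. Other genes of the further lists have a log2 change alone or enter only the counts, medians or sums of their list. Atp5a1, Atp5b, Hccs, Cox7c and the second Cox6a2 probe set were named after their values were seen. Alternatives were quantile normalization, median centring, offsets of 1 and 64, a filter at the median level, the replicate block, a trended and robust variance, each array left out, a threshold of 0.01 and other choices of probe set. Counts of groups that do not overlap under other settings, quantile normalization without WT replicate 1 and refits of 4 assembly factors were added after seeing the data.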

Additional observations from a re-analysis of the deposited data

How the results depend on the processing

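The count of member probe sets past the threshold was 0 under each alternative run. Over all probe sets 4 passed. That count became 9 after quantile normalization, 11 after median centring, 1 with an offset of 64, 79 with the filter at the median level, 15 with a trended and robust variance, 2 at a threshold of 0.01 and 1 to 6 with an array left out. No shared deviation by replicate number was seen, since deviations of same-numbered arrays correlated between -0.06 and 0.03. The labels give only a replicate number, and these values cannot settle whether the animals were paired. With the replicate number as a block 0 of all probe sets passed, and the members' median change was -0.13 as before. The lowest exact two-sided permutation p of an isoform pair was then 0.25. That is the smallest p the blocked test can give, so it cannot show whether blocking weakened a shift. The subunit genes with KO below WT numbered 1 over all arrays, 10 after quantile normalization and 1 to 14 with an array left out. For the assembly factors this count was 14 or 15 under both scalings and 14 to 26 with an array left out. With an array left out the median change ran from -0.29 to 0.02 for all members, -0.35 to -0.04 for complex II, -0.32 to 0.04 for complex III, -0.78 to -0.28 for Cycs, -0.13 to 0.16 for complex IV and -0.30 to 0.03 for complex V. Quantile normalization gave a median of -0.20 for all members. Of 32 probe sets followed under up to 13 settings, 9 took the opposite sign under at least 1. Cox4i1 gave -0.015 after quantile normalization and Cox6b1 0.0041 after median centring. With an array left out the values ran from -0.41 to 0.0065 for Atp5k, -0.14 to 0.14 for Cox4i1, -0.20 to 0.17 for Cox6b1, -0.31 to 0.044 for Cox7a2, -0.029 to 0.26 for Sdha, -0.30 to 0.014 for Sdhb, -0.45 to 0.061 for Uqcrb, -0.36 to 0.0050 for Uqcrc1 and -0.31 to 0.0995 for Uqcrh. The cause of these changes was not tested.

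The number of arrays limits the precision, and each WT or KO array carries much of its group's mean. Cox7c, Cox7b2, Cox6b2 and Cox4i2 were dim, and the offset understates their changes.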
